A study of Mus musculus with 2 samples.

Results

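The genes of the Fos and Jun families, Fos, Fosb, Fosl1, Fosl2, Jun, Junb and Jund, encode the subunits of the transcription factor AP-1. They were taken by name from the GENCODE vM21 annotation on mm10, and are 7 of the 21951 protein-coding genes. Each was examined over its gene body plus 50 kb to each side, and a peak within 1 kb of a transcription start was kept apart from a distal one. The assay was DNase-seq, which cuts nuclear DNA with DNase I, most often where regulatory DNA is open. The tissue was frontal cortex of male B6CASTF1/J mice, a cross of C57BL/6J and CAST, aged 10 days, and all samples form 1 group of 2 biological replicates with no treatment and no second condition. The notes on both samples mention 3 males and do not state pooling, and both carry the same donor entry, so the spread between them may be technical. Bulk cortex mixes cell types, and fewer cells with an open element cannot be told apart from less cutting per cell.

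AP-1 is a dimer: Jun proteins pair with one another or with Fos proteins, whereas Fos proteins need a Jun partner to bind DNA. In neurons Fos, Fosb, Jun and Junb are immediate early genes, induced within minutes of synaptic activity through the factors SRF, CREB and MEF2, while Jund is expressed more steadily. Fos is known for a set of activity-response enhancers, most of them upstream of the gene and at least 1 downstream, and the deposited files name none of them.

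The sequences below carry the main contrast, between Fos and Jun, and were read from the GRCm38 genome in the direction of each gene, 5′ to 3′. Capitals mark bases that lie inside a footprint in both libraries, a footprint being a short stretch protected from DNase I within open DNA. Shown are the Fos promoter (chr12:85473571-85473870, plus strand), the strongest distal elements upstream (chr12:85455224-85455523) and downstream (chr12:85485968-85486267) of Fos, and the Jun promoter (chr4:95052223-95052522, minus strand).
Fos promoter: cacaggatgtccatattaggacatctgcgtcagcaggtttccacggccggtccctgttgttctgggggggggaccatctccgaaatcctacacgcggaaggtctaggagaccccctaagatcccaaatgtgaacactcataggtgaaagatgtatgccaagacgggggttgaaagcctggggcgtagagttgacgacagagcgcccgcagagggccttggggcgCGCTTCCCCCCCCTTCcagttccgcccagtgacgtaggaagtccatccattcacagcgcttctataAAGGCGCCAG
Fos 18.5 kb upstream: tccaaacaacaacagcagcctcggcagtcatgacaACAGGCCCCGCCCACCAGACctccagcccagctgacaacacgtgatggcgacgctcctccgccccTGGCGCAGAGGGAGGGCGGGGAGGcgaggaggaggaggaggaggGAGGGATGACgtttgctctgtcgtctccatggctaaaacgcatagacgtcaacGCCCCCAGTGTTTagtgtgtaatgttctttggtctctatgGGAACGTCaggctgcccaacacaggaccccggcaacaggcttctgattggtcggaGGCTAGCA
Fos 12.2 kb downstream: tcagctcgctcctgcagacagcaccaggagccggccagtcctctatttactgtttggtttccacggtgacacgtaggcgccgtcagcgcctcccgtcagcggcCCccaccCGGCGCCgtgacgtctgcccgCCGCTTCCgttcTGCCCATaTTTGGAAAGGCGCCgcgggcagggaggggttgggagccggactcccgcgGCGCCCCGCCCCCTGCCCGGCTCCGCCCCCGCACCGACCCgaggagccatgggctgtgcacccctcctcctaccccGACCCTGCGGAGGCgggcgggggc
Jun promoter: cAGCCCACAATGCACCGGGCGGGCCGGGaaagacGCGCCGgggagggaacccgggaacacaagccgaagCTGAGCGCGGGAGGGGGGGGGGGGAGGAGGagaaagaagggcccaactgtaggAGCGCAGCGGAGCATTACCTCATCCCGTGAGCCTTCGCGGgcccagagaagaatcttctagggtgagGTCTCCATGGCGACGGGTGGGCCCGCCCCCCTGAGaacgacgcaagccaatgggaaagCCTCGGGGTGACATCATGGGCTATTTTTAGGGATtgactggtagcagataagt
Of the 300 bases shown for each, 26 were in footprints of both libraries in the Fos promoter, 83 and 92 in the upstream and downstream elements of Fos, and 172 in the Jun promoter. The Fos stretch ends 20 bases before the start, that of Jun directly before it, and the distal ones are centred on their elements. Peak height limits how many footprints can be called, and its part in these counts was not tested.

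Of the 7 genes, 6 had a peak in their own promoter in both libraries (all but Fosl1), against 55.1% of protein-coding genes. The strength of a peak is its cleavage density, the authors' own read-depth normalised signal. It is ranked here within each library because replicate 2 was lower at most peaks of the windows. Over the elements of the windows shared in the first run, the median density was 2.20 in replicate 2 against 3.41 in replicate 1. Over all peaks of each whole library, which are not the same peaks, it was 1.01 against 1.47. Replicate 2 was also the deeper library, with 1.64 times the relative depth of replicate 1. Hotspots are wider regions of enriched cutting. One overlapped the 1 kb around a start in both libraries at 7 of 7 members, against 63.3% of protein-coding genes. The median of the members' promoter densities lay at percentile 85.8 of protein-coding genes in replicate 1 and 87.7 in replicate 2, with genes that have no peak counted at 0. In the second-run lists, a further peak set of the same libraries made from their reads, 7 of 7 had a promoter peak in both libraries, against 57.9% of protein-coding genes in the smaller lists and 60.6% in the larger. In the looser first-run lists 7 of 7 did too, against 61.2%. At least 1 distal peak shared by the libraries lay in the window of 6 of 7 members, against 51.6% of genes, and at least 1 shared footprint in the promoter of 7 of 7, against 56.9%. The counts describe members chosen by name and no test was made on them.

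**Figure D1:**
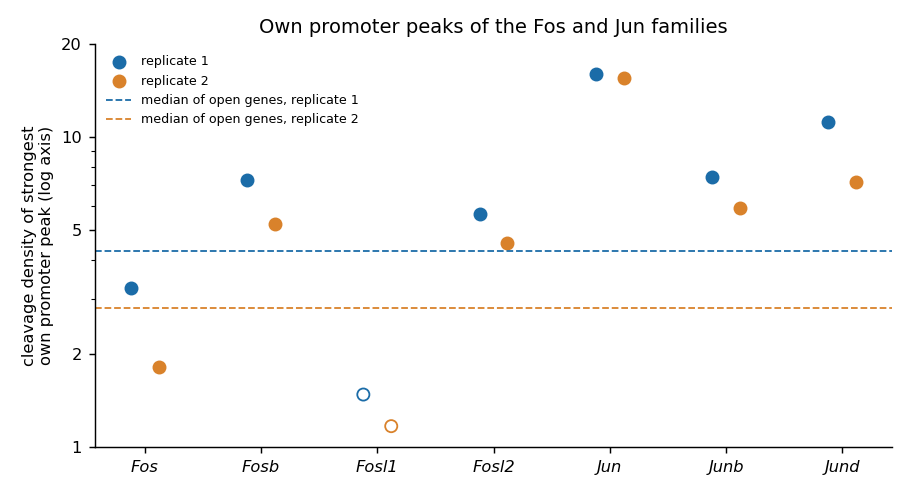
Cleavage density of the strongest own promoter peak of each gene (log axis), 1 point per library; open circles are second-run values of Fosl1, which has no peak in the main first-run lists, and dashed lines are the medians of the 12088 protein-coding genes whose promoter had a peak in each library (4.30 in replicate 1, 2.80 in replicate 2). Jun sits highest at 16.0 and 15.5, and Fos lies below both medians.

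Fos, the inducible partner whose mRNA is widely used as a marker of neuronal activity, lies on the plus strand at chr12:85473890-85477273. Its strongest promoter peak had a density of 3.25 in replicate 1 and 1.81 in replicate 2. Among the 12088 protein-coding genes open in both libraries, that is with a promoter peak in each, these values lay at percentiles 37.4 and 30.9, so the Fos promoter was open but below the middle of open promoters. A second peak 0.7 kb downstream of the start, in an intron of Fos, had densities of 2.37 and 1.33. The hotspot around both was wide, 1954 and 1534 bp, at percentiles 95.5 and 89.6 of protein-coding genes for hotspot width. Among the genes open in both libraries these percentiles were 91.9 and 81.2.

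Of the 9 elements away from the Fos promoter, 3 were stronger than the promoter in both libraries. The element 18.5 kb upstream, which is intergenic in GENCODE (chr12:85455121-85455626), had densities of 10.4 and 8.53. It ranked 47 of the 18889 distal peaks of replicate 1 and 34 of the 24023 of replicate 2, and its hotspot had a −log10 false discovery rate (FDR) of 85.5 and 78.6. The intergenic element 12.2 kb downstream had densities of 5.83 and 3.54 and ranked 202 and 308. The element 37.6 kb upstream had densities of 4.39 and 3.17; it was counted with the promoters of neighbours because the start of the non-coding gene Gm40477 lies within 1 kb of it. The other 6 were below the promoter or absent from the main lists.

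The other elements around Fos were weaker, and the libraries or the lists did not all hold them. A peak 14.1 kb downstream was in both libraries at 1.64 and 1.32. A peak 5.9 kb upstream was in the first-run list of replicate 2 alone, at 1.01, and in the second-run lists of both libraries at 0.973 and 1.04. An element 1.7 kb upstream was in no main list; the looser first-run lists had it at 1.81 and 0.909 and the second-run lists at 1.85 and 0.914. A peak 36.5 kb upstream was in the second-run list of replicate 1, at 0.770, and in the looser first-run lists of both libraries at 0.726 and 0.481. Main first-run peaks of replicate 1 at 18.4 and 23.1 kb downstream, at 0.866 and 0.877, were absent from every peak list of replicate 2. At the former, replicate 2 had a hotspot of 265 bp with a −log10 FDR of 1.98.

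**Figure D2:**
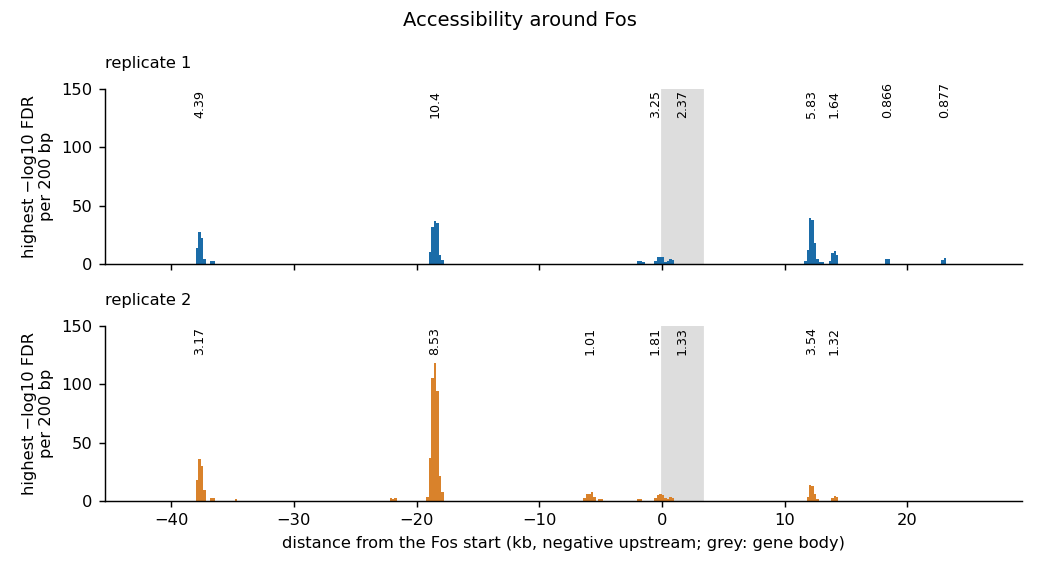
Highest −log10 FDR of DNase I cutting per 200 bp against the distance from the Fos start, 1 panel per library, with the density of each first-run peak written above it and the gene body in grey. The element 18.5 kb upstream reaches 37.2 in replicate 1 and 119 in replicate 2, whereas the promoter reaches 6.10 and 5.62.

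The strongest shared distal peak of Fos had 3.21 times the density of its promoter in replicate 1 and 4.71 times in replicate 2. Among the 6 members with a promoter peak, Fos alone had a distal peak above its promoter in both libraries, a comparison chosen after these values were seen. Of the protein-coding genes open in both libraries, 11.3% had one, and the distal-to-promoter ratio of Fos lay at percentiles 99.1 and 99.6 of them. For Fosb the ratio was 0.927 and 0.901 and for Junb 0.739 and 0.678. Fosl2, Jund and Jun had lower ratios in replicate 1, at 0.294, 0.180 and 0.166, and in replicate 2 at 0.305, 0.322 and 0.0680. The order of Fos, Fosb and Junb was therefore the same in both libraries, and that of Jund and Fosl2 was not.

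**Figure D3:**
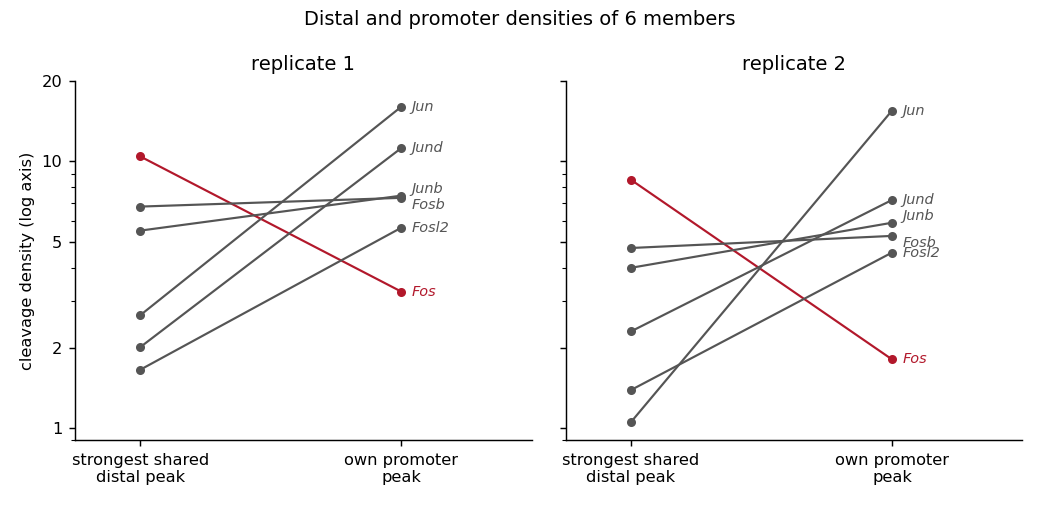
Density of the strongest shared distal peak and of the own promoter peak (log axis) for the 6 members that have both, joined by a line for each gene, 1 panel per library. The Fos line (red) runs down to its promoter, at 10.4 against 3.25 in replicate 1 and 8.53 against 1.81 in replicate 2, and the other lines run up.

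Fosb, whose product pairs with Jun proteins and persists as a truncated form after repeated stimulation, lies on the minus strand at chr7:19302696-19310051. Its strongest peak had densities of 7.30 and 5.26 and lay 1.3 kb downstream of the gene start, in an exon of Fosb, within 1 kb of another annotated start of the gene. The peak 0.3 kb upstream had densities of 5.04 and 3.25. The exonic peak was therefore the higher in both libraries. With 5 distal peaks shared between the libraries, Fosb had the most of the 7 genes. The strongest, 10.1 kb upstream in an exon of the non-coding gene D830036C21Rik, had densities of 6.77 and 4.74 and ranked 142 and 154 among distal peaks. Another, 14.1 kb downstream in an exon of the neighbouring gene Rtn2, had 4.03 and 3.09. The remaining shared distal peaks, 17.3 and 16.5 kb upstream and 1.8 kb downstream, lay between 1.68 and 2.77 in replicate 1 and between 1.52 and 1.72 in replicate 2.

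Fosl2, a Fos-related subunit best known from bone and skin, lies on the plus strand at chr5:32135801-32157842. Its promoter peak 0.2 kb upstream had densities of 5.64 and 4.55. The only distal peak found in both libraries lay 62.1 kb downstream of the start, in intergenic DNA beyond the gene, with 1.66 and 1.39. A count of 1 shared distal peak is also the median of protein-coding genes open in both libraries.

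Fosl1, the other Fos-related subunit, lies on the plus strand at chr19:5447547-5455946, and was the member with the least open promoter. It had no peak in the main first-run list of either library. The looser first-run lists held one at 1.32 and 1.13. The second-run lists held a peak 0.2 kb downstream of its start, in an exon of Fosl1, at 1.48 and 1.17. Its hotspots, 555 and 490 bp wide, had a −log10 FDR of 3.67 and 3.53. The highest per-base −log10 FDR in the element was 2.11 in replicate 1 and 3.27 in replicate 2, where an FDR of 0.001 is 3. Replicate 2 thus held a base past the inferred limit without a main peak. Passing that limit at 1 base was therefore not sufficient for a main peak, and why the element is absent was not tested. With the peaks of all lists joined into elements, none in the Fosl1 window was distal. All 15 others lay at or near starts of neighbours, the strongest at Mus81 (9.34 and 8.70), Ccdc85b (7.24 and 6.50) and Cfl1, a regulator of actin (5.98 and 4.22).

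Jun, which can bind DNA as a homodimer or with a Fos partner, lies on the minus strand at chr4:95049034-95052222. Its promoter peak, which also lay within 1 kb of a start of the antisense gene Junos, had densities of 16.0 and 15.5. These were the highest of the 7 genes in both libraries. The peak ranked 234 of the 20139 peaks within 1 kb of a start in replicate 1 and 38 of 21231 in replicate 2. The hotspot of Jun was 4311 and 4261 bp wide, at percentiles 99.96 and 99.95 of protein-coding genes. A peak 1.1 kb upstream, in an exon of the antisense gene Junos, had 5.45 and 4.53, and an exonic peak 0.6 kb downstream had 1.34 and 0.909. Its distal elements were weak by comparison. A peak 2.1 kb downstream, in the exon of Jun, had 2.65 and 1.05, and a peak 43.9 kb downstream, in an intron of Gm12694, had 0.845 and 0.810. Jun therefore had the reverse of the Fos arrangement, with the strongest promoter and the lowest ratio of distal to promoter density of the members in both libraries.

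Junb, a Jun protein that is itself rapidly induced, lies on the minus strand at chr8:84974484-84978718. Its promoter peak 0.1 kb upstream had densities of 7.44 and 5.89. A peak 2.1 kb downstream, in an intron of Junb and within 1 kb of a further annotated start, had 5.37 and 3.56, and a broad exonic peak had 1.78 and 1.51. There were 4 shared distal peaks. The 1 at 7.3 kb upstream had 5.50 and 3.99, ranked 230 and 221 among distal peaks, and all 9 of its footprints in replicate 1 were found in replicate 2. The peaks 1.3 and 2.5 kb upstream had 4.77 and 2.03 in replicate 1 and 3.94 and 1.63 in replicate 2. The peak 33.4 kb downstream had 2.88 and 2.00.

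Jund, the more steadily expressed Jun protein, lies on the plus strand at chr8:70698949-70700616. Its promoter peak 0.1 kb upstream had densities of 11.2 and 7.17, at percentiles 94.4 and 93.6 of protein-coding genes and the highest of the members after Jun. A peak 0.5 kb upstream had 4.70 and 3.44. The single shared distal peak, 14.4 kb upstream, had 2.01 and 2.31 and so was higher in replicate 2, unlike the promoter. Hotspots covered 99.1% and 98.5% of the Jund gene body, 75.0% and 73.1% of that of Jun and 65.1% and 62.5% of that of Junb. Of the 7787 protein-coding genes that span under 10 kb, 74 in replicate 1 and 62 in replicate 2 were covered to at least 90%. Such coverage was therefore uncommon among them, but they were not matched to Jund for length or for an open promoter. Jund spans only 1.67 kb, less than the width of its promoter hotspot (2208 and 2221 bp).

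**Figure D4:**
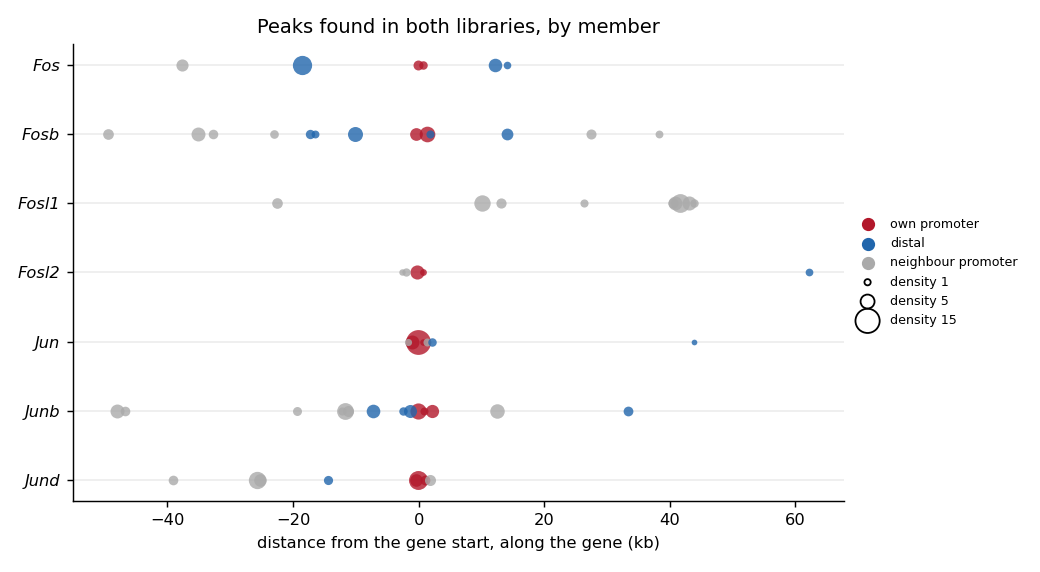
Position of each peak found in both libraries in the first run, against the distance from the start of its gene in kb, 1 row per gene; the area of a circle is the mean density of both libraries, and colour gives the class. Fos has its largest circle 18.5 kb upstream, Jun has its largest at the start, and Fosl1 has only neighbours' promoters (grey).

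The windows also held promoters of neighbouring genes. In the Fosl1 and Fos windows some were above the member's own promoter in both libraries, and at Junb in replicate 1 alone. In the other windows none was. The strongest beside Fosb was at Ercc1, a DNA repair gene, 35.2 kb upstream (5.40 and 4.55). Beside Junb it was at Hook2, 11.8 kb upstream (9.14 and 5.26), and beside Jund at Lsm4, a gene of RNA processing, 25.7 kb upstream (9.33 and 6.02). At Jun and Fosl2 the neighbouring starts were of non-coding genes, Junos (2.20 and 1.13 for the stronger) and Gm10463 (1.74 and 1.79), and at Fos that of Gm40477. The Jun and Fos windows thus held no peak at the start of another protein-coding gene. Peaks near starts of both a member and a neighbour were counted as the member's own promoter. The strongest peak of Jun was such a peak, as it also lay within 1 kb of a start of Junos. That of Jund likewise lay within 1 kb of a start of the non-coding gene Gm11175.

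Over the 7 windows the peak lists of both runs held 105 elements, of which 19 were in the members' own promoters, 51 at starts of other genes and 35 distal. In the first run 62 were found in both libraries: 15, 31 and 16 of these classes. Of the 19 distal peaks of replicate 1 in the windows, 16 were found in replicate 2, a share of 84.2% (exact 95% interval 60.4% to 96.6%), against 76.1% of all distal peaks. In the other direction 17 of 27 were found, or 63.0% (42.4% to 80.6%), against 59.9%. The intervals are wide at these numbers, cover counting error only and do not show whether the shares differ.

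In the promoters of the 7 genes, replicate 1 had 86 footprints and replicate 2 had 96. Of those in replicate 1, 61 overlapped one in replicate 2, or 70.9% (60.1% to 80.2%), against 62.2% for the promoters of all protein-coding genes. The interval includes the share of all genes. In the other direction 58 of 96 were found, or 60.4%. Where the overlap had to cover 50% of both footprints, 44 of the 86 in replicate 1 were found. Jun had 17 and 17, of which 16 of replicate 1 were shared, and Junb 20 and 17 with 12 shared. Fos had 7 and 11 with 3 shared, at percentile 62.8 of protein-coding genes for shared footprints, while Jun lay at 99.7. Among the genes open in both libraries these percentiles were 32.8 for Fos and 99.4 for Jun. Fosb had 14 and 14 with 11 shared, Jund 14 and 20 with 10, Fosl2 11 and 14 with 8, and Fosl1 3 and 3 with 1. In replicate 2 a pair of further footprint lists gives positions only; of its 96 promoter footprints above, 59 were in the smaller and 87 in the larger of these. Depth and peak height limit how many footprints can be called, and their part in these counts was not tested.

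**Figure D5:**
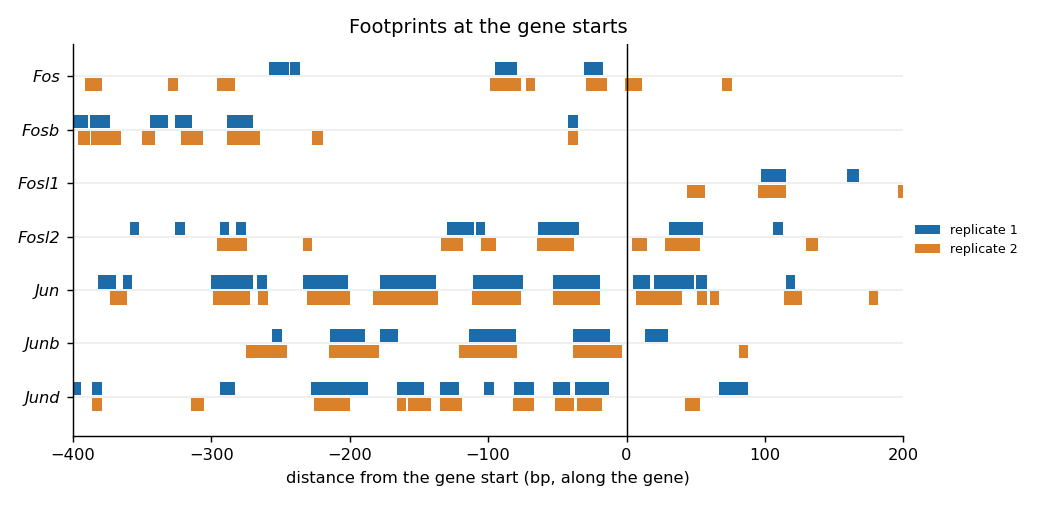
Footprints of each library from 400 bp before to 200 bp after the start of each gene, along the gene. Those of Jun fall at nearly the same places in both libraries, whereas Fos has few bars, and only 2 pairs before the start line up.

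The letters of known regulatory sites were looked for on both strands in the 400 bases before each start, beside the same stretch of 21938 protein-coding genes. The CArG box, to which SRF binds, was found in 2 of 7 members, Fos and Fosb, against 2.20% of genes. At Fos it read ccatattagg from -309 to -300 relative to the start, near the left end of the printed promoter, and no base of it was in a footprint of either library. At Fosb it read ccttatatgg from -266 to -257, with 0 of its bases in a footprint in replicate 1 and 1 in replicate 2, beside a footprint found in both. The stretch that holds it (chr7:19310122-19310351, minus strand) is shown because the box follows closely on its capitals.
Fosb promoter: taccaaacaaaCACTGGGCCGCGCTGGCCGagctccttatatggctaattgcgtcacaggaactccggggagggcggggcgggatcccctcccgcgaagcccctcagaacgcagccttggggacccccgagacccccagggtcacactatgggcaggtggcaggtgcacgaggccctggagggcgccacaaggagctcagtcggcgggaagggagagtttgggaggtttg

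The TATA box TATAAA was found in 3 of 7 members, Fos, Junb and Fosl1, against 18.8% of genes. At Fos it lay from -33 to -28, with 4 of its bases in a footprint of replicate 1 and 2 in one of replicate 2, and the last capitals of the printed promoter begin inside it. At Junb it lay from -30 to -25, wholly inside a footprint of both libraries (chr8:84978731-84978757 with its shared footprint). At Fosl1 it lay from -132 to -127 on the opposite strand and away from any footprint.
Junb footprint: CAAATTCAGTATAAAAGCTTGGGGCTG

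The cyclic AMP response element TGACGTCA, to which CREB and ATF factors bind, was found in 1 of 7 members, Jund, against 2.13% of genes. It lay from -214 to -207, inside a footprint in both libraries (chr8:70698723-70698748), and the protected stretch is printed whole.
Jund footprint: GCCCCACCCCCATGACGTCAACCCAC
Its first letters alone, TGACG, which are part of it and were chosen after the sequences had been seen, occurred in the 400 bases of 7 of 7 members, against 24.3% of genes. At Fos the copy from -66 to -62 was outside the footprints of both libraries, within 5 bp of one in replicate 2. The AP-1 site TGAGTCA was found in 0 of 7 members, against 6.08% of genes, which says only that these letters are not in these windows.

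In the Jun promoter a MEF2 box lay from -33 to -24 and the letters tgacatca from -45 to -38, both inside a footprint of both libraries and both within the last run of capitals printed above. The MEF2 box occurred in 1 of 7 members, against 0.734% of genes. TGANNTCA, a looser form of the AP-1 and cyclic AMP sites chosen after the sequences had been seen, occurred in 2 of 7, Jun and Jund, against 16.7%. GGGCGG, the site of SP and KLF factors, occurred in 6 of 7 (all but Junb), against 42.2%. Not all matches lay in footprints: the CCAAT box of Jun from -65 to -61 had none of its bases in one, and a copy of TGACG at Fos from -292 to -288 had all 5 in a footprint of replicate 2 and none in replicate 1.

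The strong distal elements of Fos also held these letters. In windows of 300 bp centred on the peaks, the CArG box occurred in 2 of the 16 shared distal elements of the members, against 1.45% of 14381 shared distal peaks. At the element 12.2 kb downstream of Fos it read ccatatttgg, within 5 bp of or inside a footprint in both libraries, and at the Junb element 1.3 kb upstream it read cctaatatgg, away from footprints. The element 18.5 kb upstream of Fos had no CArG box, and its 3 copies of GGGCGG and 3 copies of TGACG were all inside or within 5 bp of footprints of both libraries. GGGCGG occurred in 8 of the 16 elements, against 15.8% of distal peaks, and TGACG in 7, against 15.5%. The AP-1 site TGAGTCA occurred in 3 of the 16, against 7.28% of distal peaks; at the Fosb element 17.3 kb upstream and the Jund element 14.4 kb upstream it was inside or within 5 bp of a footprint in both libraries. A match of letters is a description and not a site of binding.

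Of 17 partners and upstream regulators, 14 had a promoter peak in both libraries, against 55.1% of protein-coding genes. Srf, the factor of the CArG box, had promoter densities of 10.3 and 8.01, and Creb1 had 13.5 and 8.46, above Fos in both libraries. Jdp2, a repressor that pairs with Jun and a neighbour of Fos on its chromosome, had 2.18 and 1.80, below Fos in replicate 1 and near it in replicate 2. Batf, known from lymphocytes, and Batf3 had no promoter peak in the main or smaller second-run lists of either library. Batf3 nevertheless had a promoter hotspot in both libraries, with a −log10 FDR of 2.13 and 1.71. Elk3, a partner of SRF, had 1.06 in the main list of replicate 1 alone and 1.09 and 0.726 in the smaller second-run lists.

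By hotspot width, promoter density and footprint number in each library and the number of shared distal peaks, 7 values in all, the protein-coding genes most like Fos were Pitpnc1, Unc5d and Laptm4b, with a mean absolute difference of 1.22, 2.58 and 2.95 percentile points. These values leave out the strength of distal peaks. The distal-to-promoter ratio was 0.387 and 0.868 at Pitpnc1, 0.383 and 0.682 at Unc5d, and 0.338 and 0.565 at Laptm4b. Unlike Fos, these 3 genes thus had no shared distal peak above their promoter. Of the members Fosl2 was nearest to Fos at 12.4 and Fosl1 farthest at 35.2. Among cell type markers, the promoters of 4 of 4 neuronal genes (Snap25, Syt1, Rbfox3 and Tubb3) had peaks in both libraries. Their densities in replicates 1 and 2 were, in this order, 2.63 and 1.89, 4.98 and 3.50, 1.59 and 1.05, and 5.58 and 3.17. Syt1 and Tubb3 were above the astrocyte gene Aldoc in both libraries, Rbfox3 was below it in both, and Snap25 in replicate 2 alone. Of all 17 markers 10 had a peak in both libraries, which is near the share of 55.1% of protein-coding genes. Of the other cell types, peaks in both libraries were at the oligodendrocyte lineage genes Olig1, Olig2 and Pdgfra, at the astrocyte genes Aldoc (2.10 and 2.53) and Slc1a3 (0.661 and 0.533) and at the microglial gene Cx3cr1 (0.747 and 0.698). In the smaller second-run lists 8 of the 17 markers had a promoter peak in both libraries, against 57.9% of protein-coding genes. Slc1a3 and Cx3cr1 were no longer among them. No promoter peak was in both libraries at the endothelial genes Cldn5 and Pecam1, the microglial genes C1qa and Csf1r or the astrocyte gene Aqp4. The liver genes Alb and Apoa1 had none either. Of these genes, Apoa1 and C1qa nevertheless had a promoter hotspot in both libraries, which need only overlap the 1 kb around a start. The −log10 FDR of the hotspot was 29.5 and 32.3 at Apoa1, above that at Fos (21.3 and 12.1), and 2.57 and 2.68 at C1qa.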

How the data were processed

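DNase-seq of 2 biological replicates of frontal cortex was analysed from the interval lists deposited per library on mm10, per the labels. Peaks carry a read-depth normalised signal, the cleavage density, deposited by the authors. Hotspots carry the highest −log10 FDR, per the file headers. The deposited footprint lists hold 0.01, the authors' cutoff, in every line of their p-value column, and the deposited per-base tracks hold an FDR, also a p-value column. Aligner, callers and versions were not given in the sources used here. In the first run, every peak (100%) of the main list held a base at an FDR below 0.001; the looser list is at 0.05. Both thresholds were inferred. The second run is the peak lists made from the reads.

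Overlapping peaks of 1 list were joined, which left 39028 of 39608 peaks in replicate 1 and 45254 of 45915 in replicate 2. Lists were compared by overlap of at least 1 bp. A peak overlapping 1 kb around any start of a gene was assigned to its promoter, and one near no start was distal. Densities are whole steps (tolerance 0.05 of a step), whose size gave the relative depth; absolute depth is not known. No coordinate passed a chromosome end of GRCm38.p6, and 6 of 6 promoters in the RefSeq table matched the genome's letters. Whether mapping of the F1 reads to C57BL/6J favoured that allele was not tested. Python 3.11.15, pandas 2.3.3, numpy 2.4.6, scipy 1.17.1, pyfaidx 0.9.0.4 and matplotlib 3.10.9 were used, and overlaps were tested on simulated data.

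Members and lists were chosen with earlier results of these data known. Named genes were the members, neighbours with promoter peaks in their windows, Jdp2, Batf, Srf, Creb1 and pathway members without a promoter peak, and the 3 genes most like Fos. With 1 group no test between conditions was possible. Alternatives were another list, overlap rule, promoter width, flank or footprint list, and each library alone.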

Additional observations from a re-analysis of the deposited data

How the results depend on the processing

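The main results were recomputed under the alternatives: members with a promoter peak (6) and a promoter hotspot (7) in both libraries, distal peaks of replicate 1 found in replicate 2 in all windows (16) and upstream of Fos (1), promoter footprints found again (61) and the median promoter percentile (86.7). The looser first-run lists gave 27 shared distal peaks and 3 upstream of Fos, the smaller second-run lists 25 and 4, and the larger 30 and 4. A flank of 10 kb gave 7 and 0, and one of 100 kb gave 27 in all windows. Counting distance to protein-coding starts alone, an alternative chosen after seeing the data, gave 25 and 2. With promoters of 500 bp the median percentile was 82.3. Within 1 library alone, without replicate 1 or without replicate 2, the members with a peak ranged from 6 to 6. Those with a hotspot ranged from 7 to 7, and the percentile from 85.8 to 87.7. The other counts were then of everything in that library, since nothing can be found again in 1 library. They were distal peaks from 19 to 27, those upstream of Fos from 1 to 2 and footprints from 86 to 96. These ranges do not show how stable the shared counts are. No paired analysis was possible because there is only 1 group. Depth is known only as a ratio between the libraries, and weak elements, such as that of Fosl1, depend on the list.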
